A study of Mus musculus with 14 samples.

Results

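The transcriptional response of the hippocampus to hyperoxia was examined in mice that lacked Gsdmd, by comparing 3 KO-O2 with 3 KO-RA mice out of 14 mice sequenced, with 1 library per mouse. All 6 mice were homozygous for a CRISPR/Cas9 knockout allele with a short deletion within the fifth exon of Gsdmd. The knockout is global, so every cell of the body lacks the gene and not neural cells alone. They were C57BL/6N pups bred from heterozygous parents. The KO-RA pups (GSD489, GSD490 and GSD496) breathed room air and the KO-O2 pups (GSD491, GSD494 and GSD495) breathed 85% O2 from postnatal day 1 to day 14, and hippocampal RNA was taken on postnatal day 15. The members were taken from the columns of the deposited table whose names give the KO genotype and the exposure. The 8 wild-type littermates, 4 in room air (WT-RA) and 4 in hyperoxia (WT-O2), serve here only to set the KO response beside the response of mice that carry the gene. One of them, GSD408, is WT-O2 by its title and column name and room air by its treatment field.

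Gsdmd encodes gasdermin D, which inflammatory caspases cleave so that its N-terminal fragment forms pores in the cell membrane, releases interleukins and kills the cell by pyroptosis. The pup hippocampus at this age is still adding neurons, synapses, myelin and vessels. Its neurons switch on immediate early genes such as Fos and Arc within minutes of firing. Its vessels and glia respond to oxygen through the hypoxia-inducible factors, whose targets are repressed when oxygen is plentiful and induced when it falls. The tissue was taken the day after the last day of exposure, and the study does not say how long the pups had then been out of hyperoxia.

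Expression is given below as CPM, the share of a library's counts taken by a gene on a common scale, after scaling by TMM, an edgeR method that sets libraries to a common level. Fold changes are those fitted by edgeR and are given on the log2 scale as KO-O2 minus KO-RA, with their standard error (SE). Library totals ran from 27272270 to 28257496 estimated counts. Gsdmd itself (ENSMUSG00000022575) was read at 0.817, 1.47 and 1.28 CPM in the KO-RA mice and at 1.36, 1.32 and 1.5 CPM in the KO-O2 mice. The groups overlapped, and these sums over all transcripts of the gene do not show the deletion, so they do not check the genotype. By 4 Y-linked genes, 1 mouse of each KO group was male. In WT, GSD401 of WT-RA and GSD404, GSD406 and GSD408 of WT-O2 were male, so sex was uneven between the WT groups.

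Levels of markers from neighboring tissue differed among the KO mice. Markers of the choroid plexus, the secretory epithelium that borders the hippocampus, summed to 108 CPM in KO-RA mouse GSD489 and 188 CPM in KO-O2 mouse GSD494, and to between 1847 and 3595 CPM in the other 4 KO mice. Each exposure group thus held 1 library with few choroid plexus transcripts, as the plot of markers by mouse shows. Markers of the hippocampal fields, such as Prox1 of the dentate gyrus, summed to between 1371 and 1702 CPM in KO-RA and between 1488 and 1641 CPM in KO-O2. The 10 thalamic markers summed to 167, 177 and 179 CPM in KO-RA and to 188, 181 and 188 CPM in KO-O2, so all KO-O2 libraries lay slightly above the KO-RA libraries. Fits with choroid plexus markers, or with striatal and thalamic markers, as covariates and a fit without GSD489 and GSD494 are given beside the calls they changed. The part of the hippocampal field markers was not tested. In tissue RNA, fewer cells of a type and less RNA per cell cannot be told apart.

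**Figure D1:**
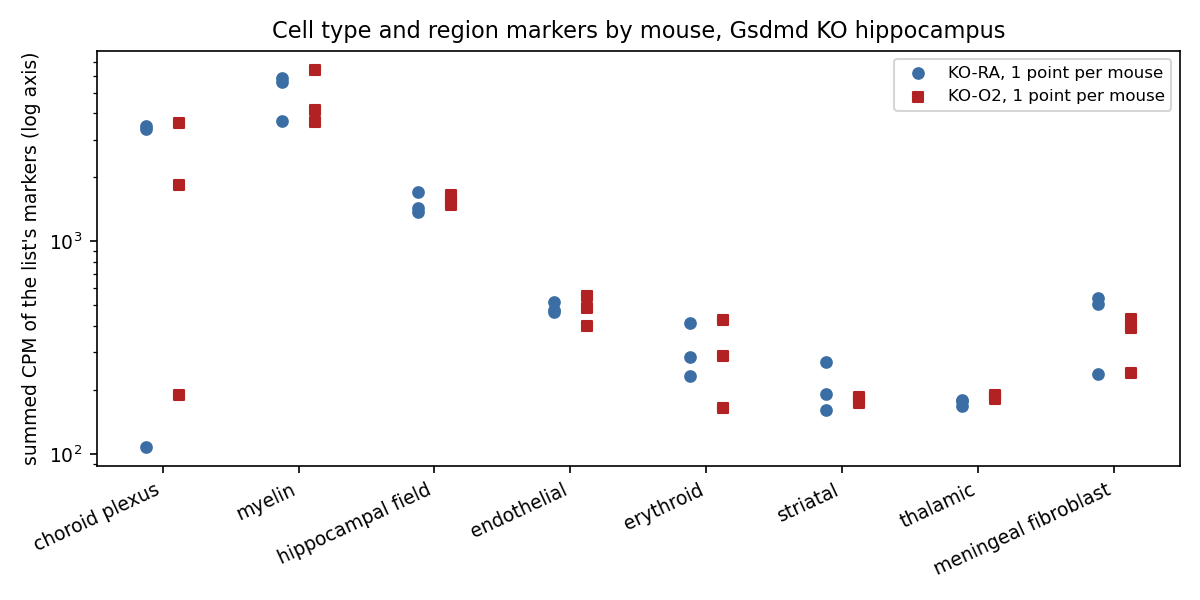
Summed CPM of cell type and region markers (log axis) in each of the 3 KO-RA (blue circles) and 3 KO-O2 (red squares) libraries, 1 point per mouse. Choroid plexus markers range from 108 to 3595 CPM within the 6 mice, and each group holds 1 low library.

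Of 16637 genes tested, 2 passed the test in the knockout hippocampus after 85% O2. Fos fell and Ier3 rose. This was 0.012% of the genes tested. A gene was called where its log2 fold change was at least 0.32 in size and, by the quasi-likelihood test of edgeR, p was under 0.05 and q (the Benjamini-Hochberg adjusted p) under 0.1. A second description used the replicates alone and counted the genes whose KO-O2 and KO-RA values did not overlap. All KO-O2 libraries lay above all KO-RA libraries for 919 genes (5.52%) and below them for 1036 genes (6.23%). With a log2 fold change of at least 0.32 in size as well, 306 genes were higher (1.84%) and 252 were lower (1.51%) in KO-O2 without overlap. Most of these differences were small. Among genes with a mean of at least 1 CPM, 175 were higher and 174 lower by at least 0.32 on the log2 scale without overlap, 41 and 33 by at least 1.5-fold, and 8 and 7 by at least 2-fold. For any single gene, 3 mice against 3 give an exact two-sided permutation p of 0.1 at best, which every gene without overlap reached. Where the groups do not differ, chance alone would thus leave a share of about 0.1 of genes without overlap, divided evenly between higher and lower. The 5.52% and 6.23% found lie near that level, so the 919 and 1036 genes cannot be read as genes that responded to hyperoxia.

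**Figure D2:**
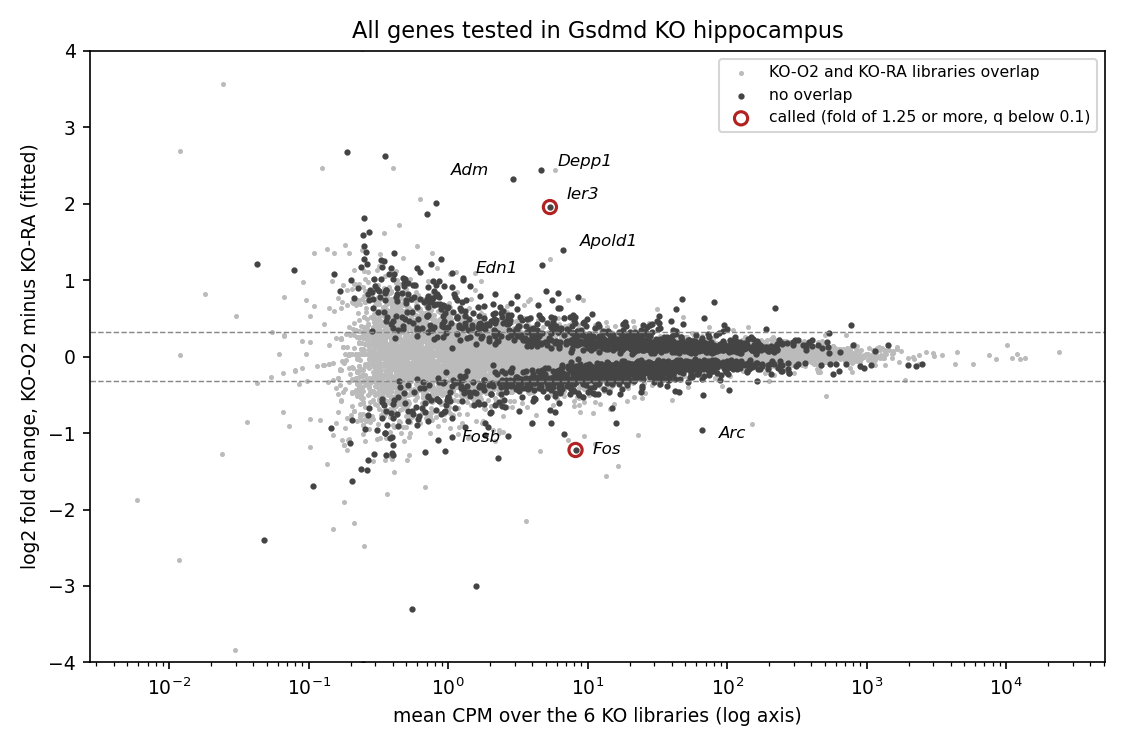
Fitted log2 fold change of KO-O2 against KO-RA for the genes tested, against their mean CPM over the 6 KO libraries (log axis). Dark points are genes whose KO-O2 and KO-RA libraries did not overlap, dashed lines mark log2 fold changes of 0.32 and -0.32, and red rings mark Ier3 and Fos, the 2 genes called. The vertical axis ends at 4 and leaves out 14 genes of larger fitted change.

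The calls depended on the tool and on the wild-type mice, since all 14 libraries share one estimate of the spread. With the wild-type mouse of conflicting labels, GSD408, taken as WT-RA, neither Fos (q = 0.59 in edgeR) nor Ier3 (q = 0.997 in edgeR) was called, although their fitted fold changes stayed at -1.22 and 1.96 on the log2 scale. Ier3 stood at 14.7 CPM in GSD408, against 2.01 to 4.40 CPM in WT-RA and 7.33 to 9.75 CPM in the other WT-O2 mice. Fos stood at 9.57 CPM, against 14.8 to 19.5 CPM and 6.34 to 8.60 CPM. Both values lay outside the WT-RA range, on the side of the other WT-O2 mice. Which label is right was not tested. DESeq2 called 13 genes on the same libraries, among them Adm, Apold1, Arc, Depp1, Edn1 and Fosb.

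Fos, the transcription factor most widely used as a mark of recent neuronal activity, was the gene with the smallest p. It was read at 12.8, 11.4 and 10.2 CPM in KO-RA and at 4.90, 4.59 and 5.25 CPM in KO-O2. The lowest KO-RA library held nearly double the Fos of the highest KO-O2 library. It fell by 1.22 on the log2 scale (SE 0.148; edgeR adjusted p = 0.0121), to 0.429 of the room air level. The call held with each KO mouse left out in turn, with adjusted p from 0.0232 to 0.0972 in edgeR, but not with GSD489 and GSD494, the 2 libraries with few choroid plexus transcripts, left out together (edgeR adjusted p = 0.385). The log2 fold change was then -1.09, and with choroid plexus markers as a covariate Fos was still called (-1.22).

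Ier3, an early response gene that protects cells from apoptosis, was read at 1.86, 2.27 and 2.45 CPM in KO-RA and at 9.24, 7.48 and 8.89 CPM in KO-O2. Every KO-O2 library exceeded every KO-RA library about 3-fold or more. It rose 3.88-fold, by 1.96 on the log2 scale (SE 0.272; edgeR adjusted p = 0.0301). Its edgeR call was lost without KO-RA mouse GSD489 (adjusted p = 0.374), KO-RA mouse GSD490 (0.295) or KO-O2 mouse GSD491 (0.141), while its fold change stayed between 1.85 and 2.04 on the log2 scale.

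Among 18 immediate early transcription factors, which include the AP-1 and Egr families, 7 lay lower in all KO-O2 libraries (38.9%, against 6.23% of all genes), 1, Maff, lay higher, and 10 overlapped. The median log2 fold change of the list was -0.20, against 0.00 for all genes, and only Fos passed the test. Egr1, a zinc finger factor of plasticity, was read at 129, 130 and 95.5 CPM in KO-RA and 75.0, 93.3 and 94.4 CPM in KO-O2, where the groups nearly touched. Fosb was read at 6.09, 5.0 and 4.41 CPM against 2.58, 2.90 and 3.0 CPM, with a clear gap. Its log2 fold change was -0.87 (SE 0.158; edgeR adjusted p = 0.186). Egr2 was read at 3.12, 2.59 and 1.71 CPM against 0.967, 1.14 and 1.54 CPM, a log2 fold change of -1.02 (SE 0.310; edgeR adjusted p = 0.861). Fosl2, Junb and Jun were lower by 0.46, 0.30 and 0.12 on the log2 scale. Npas4, which opens the activity programme in excitatory and inhibitory neurons, had a log2 fold change of -0.52 with overlapping groups, and Nr4a1 and Egr3 were at -0.15 and 0.04.

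Of 20 effector genes that synaptic activity controls, 2 lay lower and 2 higher without overlap, a share of 10% each way that is near the 6.23% and 5.52% of all genes, with a median of 0.00 on the log2 scale. Arc, whose product tunes AMPA receptors at synapses, was the largest among them, at 110, 83.6 and 68.4 CPM in KO-RA and 49.0, 44.8 and 41 CPM in KO-O2. The groups were well apart, and the log2 fold change was -0.96 (SE 0.174; edgeR adjusted p = 0.186). Rgs2, a regulator of G protein signaling, was lower by 0.38. Sik1, a kinase that restrains CREB coactivators, and Ccn1, a matricellular protein, were higher by 0.22 and 0.64.

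Immediate early genes are known to be controlled through short elements just before their start, so this stretch is shown for Fos, the gene that fell, and for Egr2. The 250 bases before each start were taken from RefSeq (build GRCm38.p6) and searched on both strands for 6 motifs, the CRE (TGACGTCA), AP-1 (TGANTCA), the CArG box, the hypoxia core (ACGTG), the FoxO core (GTAAACA) and the antioxidant element (TGACNNNGC), with matches in capitals. Both sequences below lie on the plus strand, Fos at chr12:85473640-85473889 and Egr2, 1 of 5 annotated starts, at chr10:67537619-67537868.
Fos: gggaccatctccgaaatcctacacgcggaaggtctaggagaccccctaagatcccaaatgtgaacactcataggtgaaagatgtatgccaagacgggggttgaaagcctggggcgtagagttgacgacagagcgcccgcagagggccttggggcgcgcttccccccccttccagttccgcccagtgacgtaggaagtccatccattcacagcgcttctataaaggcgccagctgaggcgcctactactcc
Egr2: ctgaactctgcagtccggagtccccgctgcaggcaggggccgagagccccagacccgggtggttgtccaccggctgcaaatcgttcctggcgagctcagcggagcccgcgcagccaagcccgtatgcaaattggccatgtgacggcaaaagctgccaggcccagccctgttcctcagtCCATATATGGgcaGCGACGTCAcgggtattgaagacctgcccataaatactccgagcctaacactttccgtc
The Egr2 stretch holds a CArG box, the site of serum response factor, 72 to 63 bases before the start, beside a match to the antioxidant element on the other strand. CArG boxes stood in 1.19% and antioxidant elements in 11.3% of 15771 promoters of the genes tested. None of the 6 motifs was matched exactly in the Fos stretch, and bases further from the start were not searched. No CRE was found in the promoters of any of the 17 genes with the largest changes that had an entry, and the CRE stood in 2.31% of all promoters.

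Among genes of at least 1 CPM without overlap, those highest by fold change were Depp1, Adm, Ier3, Apold1 and Edn1. Depp1, a FoxO target named for its decidual induction by progesterone, was read at 1.08, 0.350 and 2.92 CPM in KO-RA and 8.45, 8.22 and 6.94 CPM in KO-O2. Room air values spread widely while the hyperoxia values were close together, and the log2 fold change was 2.44 (SE 0.474; edgeR adjusted p = 0.271). It was 3.47 without KO-RA mouse GSD496 and 1.97 to 2.52 with any other KO mouse left out. Adm, which encodes the vasodilator peptide adrenomedullin, was read at 0.557, 1.05 and 1.32 CPM against 6.44, 3.26 and 4.95 CPM. Its log2 fold change was 2.32 (SE 0.421; edgeR adjusted p = 0.186). Apold1, an early response gene of endothelial cells, was read at 3.79, 3.74 and 3.56 CPM against 11.1, 7.74 and 10.2 CPM. Its room air libraries were almost equal and far below the hyperoxia libraries, with a log2 fold change of 1.39 (SE 0.226; edgeR adjusted p = 0.115).

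Edn1, the vasoconstrictor endothelin 1, was read at 2.93, 3.15 and 2.45 CPM in KO-RA and 7.62, 7.08 and 4.88 CPM in KO-O2. The groups were apart and the log2 fold change was 1.20 (SE 0.292; edgeR adjusted p = 0.66). The endothelin receptors Ednra and Ednrb had log2 fold changes of 0.05 and 0.22 with overlapping groups. Vegfa, the main angiogenic factor, was read at 51.3, 60.9 and 69.8 CPM against 114, 80.8 and 105 CPM, with all KO-O2 libraries above the highest KO-RA library. Its log2 fold change was 0.72 (SE 0.272; edgeR adjusted p = 0.98). Its receptors Flt1 and Kdr were at 0.06 and 0.21 on the log2 scale, and overlapped. Of the 21 genes of endothelin and Vegf signaling, only Edn1 and Vegfa were free of overlap (9.52% higher, against 5.52% of all genes).

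**Figure D3:**
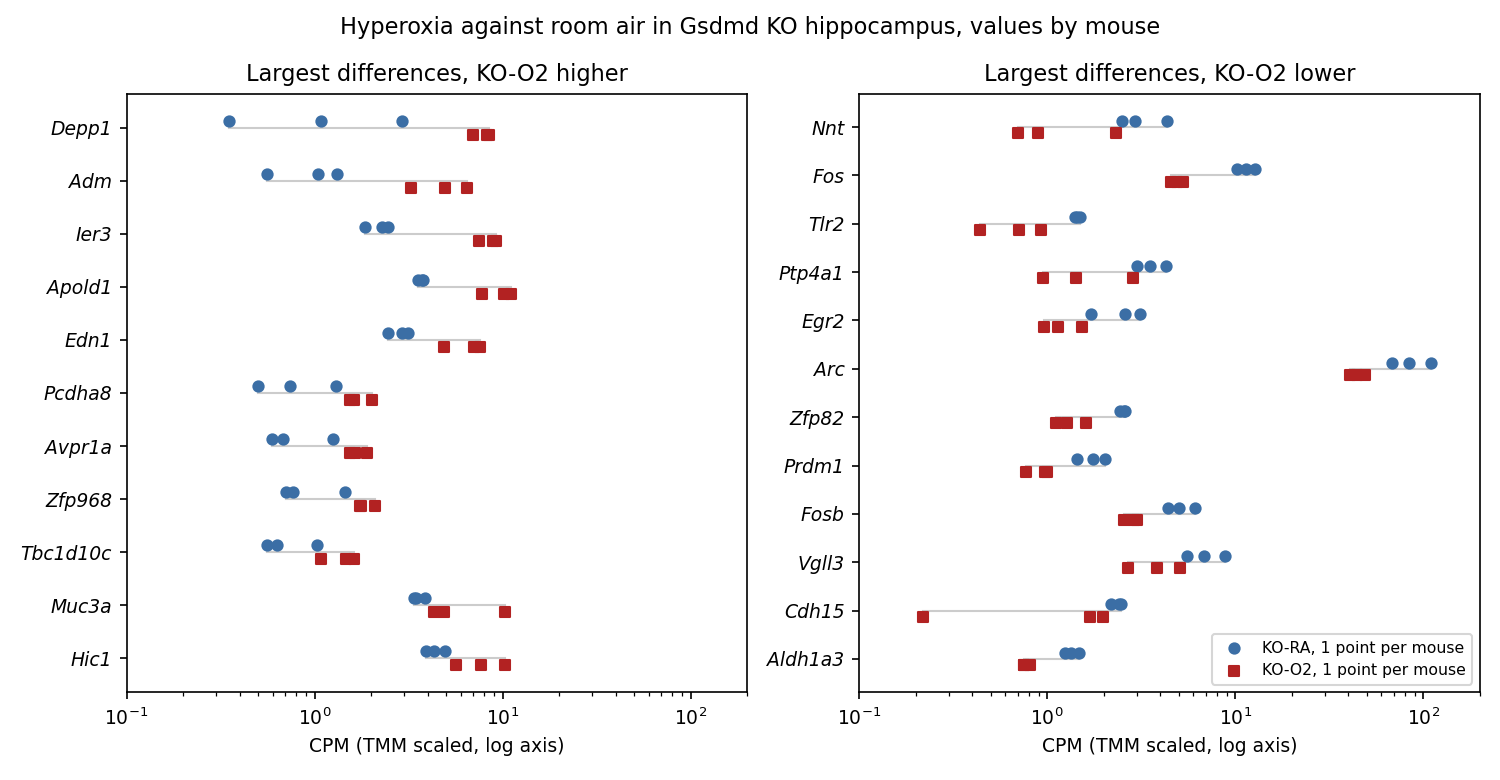
CPM (log axis) of 23 of the 24 genes with the largest log2 fold changes (mean of at least 1 CPM, groups without overlap), in each of the 3 KO-RA (blue circles) and 3 KO-O2 (red squares) mice, 1 point per mouse. Fos, Ier3, Apold1 and Aldh1a3 show tight groups, and Muc3a and Cdh15 rest on 1 KO-O2 mouse.

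Adm and Edn1 are shown by the 250 bases before their starts because neither stretch overlaps an annotated exon. Both lie on the plus strand of GRCm38.p6, Adm at chr7:110627407-110627656 and Edn1 at chr13:42301226-42301475, with matches to the 6 motifs in capitals.
Adm: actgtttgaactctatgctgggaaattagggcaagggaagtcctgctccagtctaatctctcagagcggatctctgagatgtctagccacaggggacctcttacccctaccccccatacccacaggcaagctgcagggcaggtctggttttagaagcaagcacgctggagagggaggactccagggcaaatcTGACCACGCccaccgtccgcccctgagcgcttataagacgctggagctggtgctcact
Edn1: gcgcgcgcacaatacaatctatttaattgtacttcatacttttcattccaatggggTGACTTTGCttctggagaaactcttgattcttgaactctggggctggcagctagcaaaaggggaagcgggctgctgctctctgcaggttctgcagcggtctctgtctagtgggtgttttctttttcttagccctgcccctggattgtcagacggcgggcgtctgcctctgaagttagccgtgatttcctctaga
Each holds 1 match to the antioxidant element, 58 to 50 bases before the start in Adm and 194 to 186 bases before it in Edn1. Neither holds the hypoxia core, which was found once in Ier3 (202 bases before the start) and once in Apold1 (163 bases before it). The core is short and stood in 20.1% of all promoters, in 2 of the 9 promoters of genes with the largest positive differences and in 3 of the 13 of genes with the largest negative differences. The antioxidant element stood in 2 of the 9 and 4 of the 13. Egr2 supplied 5 of those 13, with overlapping stretches that repeat the same antioxidant match. The only other gene among them with this match was Cdh15.

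In the wider list of hypoxia-responsive genes, 11 of 28 lay higher in all KO-O2 libraries (39.3%, against 5.52% of all genes) and 1, Gapdh, lay lower. None passed the test, although Adm did without a filter on low counts, without GSD408, with striatal and thalamic markers as covariates and in DESeq2, and Bhlhe40, Pfkfb3 and Vegfa did in DESeq2 on the KO libraries alone. With library size in place of TMM, 9 lay higher and 2 lower. Bhlhe40, a repressor that HIF-1 induces and that dampens the clock, was read at 57.7, 55.7 and 54.8 CPM in KO-RA and 88.7, 76.4 and 74.3 CPM in KO-O2, a difference on the log2 scale of 0.51 (SE 0.13; edgeR adjusted p = 0.66). Ankrd37, Pfkfb3, Ddit4, Kdm3a, P4ha2, Ero1a and Egln3 were higher by 0.79, 0.46, 0.42, 0.35, 0.21, 0.20 and 0.11 on the log2 scale. The glycolytic enzymes Pgk1, Ldha, Eno1 and Aldoa, which are hypoxia targets too, had log2 fold changes between -0.08 and -0.02. The median of the whole list was 0.10.

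In KO-O2 mouse GSD494, which held few choroid plexus transcripts, the values of Vegfa, Adm, Ankrd37, Ddit4 and Pfkfb3 were the lowest of the group. With it and KO-RA mouse GSD489 left out, 14 members of the list lay higher (50%) and 5 lower (17.9%), where 2 mice against 2 left 19.6% of all genes higher and 19.6% lower without overlap.

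Of 22 genes of the integrated stress and unfolded protein responses, none passed the test. In all, 8 lay lower without overlap (36.4%, against 6.23% of all genes), 0 lay higher (against 5.52%) and 14 overlapped, with a median of -0.08 on the log2 scale. With library size in place of TMM, 6 lay lower. Hspa5, the master chaperone of the endoplasmic reticulum, was read at 220, 218 and 230 CPM in KO-RA and 186, 199 and 185 CPM in KO-O2. The difference was small but clean, at -0.23 (SE 0.0561; edgeR adjusted p = 0.66). Pdia4, a disulfide isomerase, was read at 43.9, 46.1 and 48.9 CPM against 38.6, 39.1 and 35.8 CPM, a log2 fold change of -0.29 (SE 0.0601; edgeR adjusted p = 0.339). Manf, Hsp90b1, Dnajb9, Xbp1, Pdia6 and Herpud1 were lower by 0.22, 0.16, 0.15, 0.14, 0.13 and 0.08. Most of these genes, Xbp1 and Herpud1 apart, act in protein folding. In the translational branch, Atf4, the factor that drives it, was at 0.01 and its targets Ddit3, Trib3 and Asns at -0.21, 0.27 and -0.02, all with overlapping groups.

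Of 14 heat shock and cold-inducible genes, 4 lay lower (28.6%, against 6.23% of all genes), 2 lay higher (14.3%, against 5.52%) and 8 overlapped. Hsp90aa1, a cytosolic chaperone, was read at 1030, 990 and 1009 CPM in KO-RA and 905, 908 and 916 CPM in KO-O2. Dnaja1, Hsph1 and Hspa8 were lower by 0.19, 0.16 and 0.11 on the log2 scale. The pair that was higher, Cirbp and Rbm3, encodes RNA-binding proteins that cells make when cooled. Cirbp was read at 24.2, 27.6 and 21.9 CPM against 29.9, 31.5 and 37.4 CPM, a log2 fold change of 0.42 (SE 0.107; edgeR adjusted p = 0.66). Rbm3 was read at 112, 106 and 106 CPM against 128, 118 and 127 CPM. None of the 14 passed the test.

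**Figure D4:**
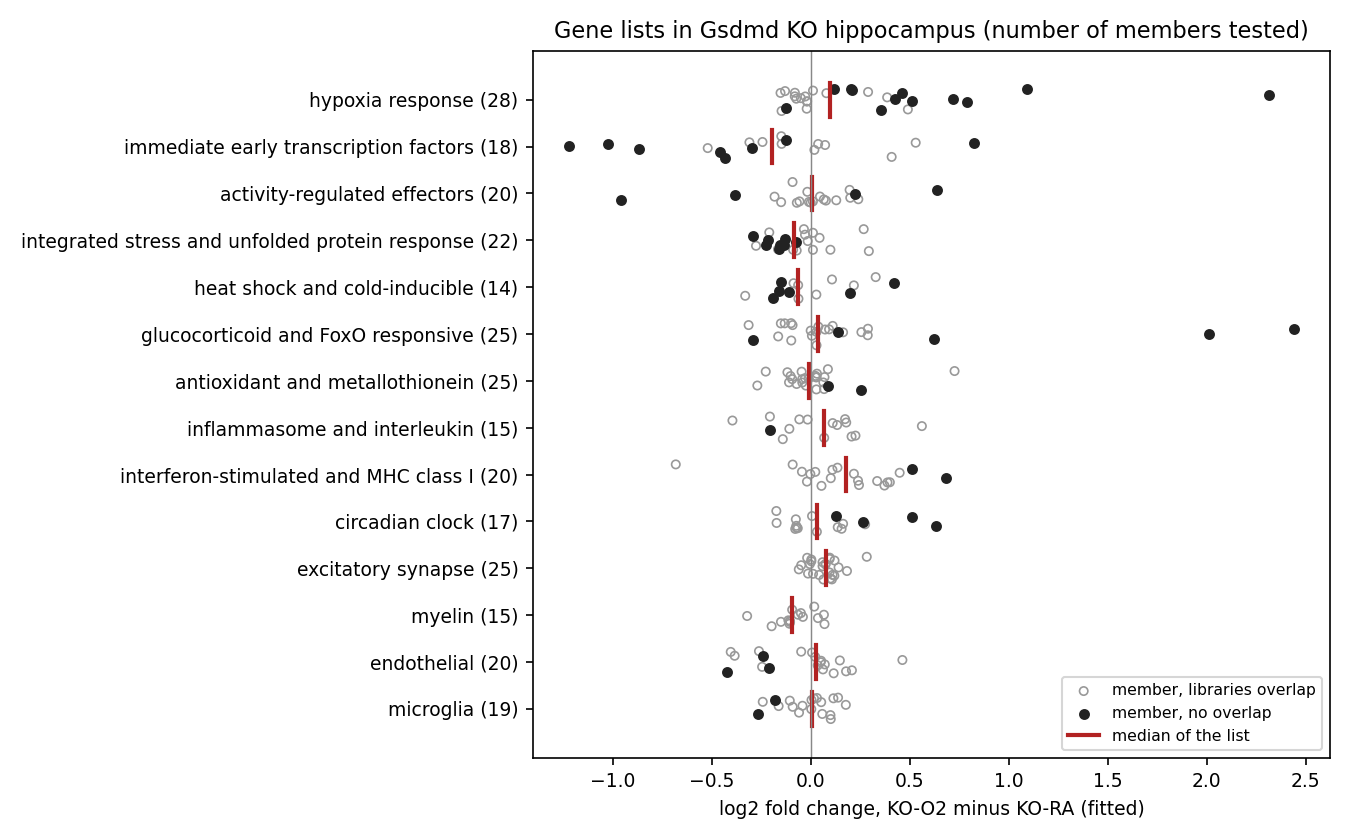
Fitted log2 fold change (KO-O2 minus KO-RA) of each tested member of 14 gene lists, with filled points for members whose libraries did not overlap and a red bar at the median of the list. Filled points lie to the right in the hypoxia list (11 of 28 higher), to the left in the immediate early (7 of 18 lower) and unfolded protein lists (8 of 22 lower), and are absent from the excitatory synapse and myelin lists.

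Genes of the glucocorticoid and FoxO responses were mixed, with 4 of 25 higher (16%, against 5.52% of all genes), 1 lower (4%, against 6.23%) and a median of 0.04. Besides Depp1, they included Txnip, an inhibitor of thioredoxin and of glucose uptake, at 29.2, 34.8 and 37.1 CPM in KO-RA and 59.4, 44.3 and 51.9 CPM in KO-O2, which differed on the log2 scale by 0.62 (SE 0.175; edgeR adjusted p = 0.782). Lcn2, an iron-binding protein of reactive astrocytes, was at 0.186, 0.420 and 0.356 CPM against 0.716, 2.09 and 1.13 CPM, which is few counts. Fkbp5, Sgk1 and Zbtb16, direct targets of the glucocorticoid receptor, were at -0.10, 0.14 and 0.03, and overlapped. Of 17 circadian clock genes, 4 lay higher (23.5%, against 5.52% of all genes) and 0 lower, and none passed the test. They were Ciart (0.63), Bhlhe40, Nr1d1 (0.26) and Cry2 (0.13), which are known as repressors of the clock.

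Genes of the defense against oxygen radicals were mostly overlapping. Of 25 antioxidant and metallothionein genes, Gstm1 (0.25 on the log2 scale) and Gclc (0.08) lay higher without overlap (8%, against 5.52% of all genes). None lay lower, and the median was -0.01. Hmox1, Srxn1 and Txnrd1, standard targets of Nrf2, were at 0.07, 0.03 and -0.04, and Sod1, Sod2 and Cat at -0.09, 0.02 and 0.06. Of 13 p53 targets tested, Mdm2 (-0.22) and Btg2 (-0.21) lay lower (15.4%, against 6.23% of all genes) and 0 lay higher.

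The inflammatory genes on which the pyroptosis question turns did not separate the KO groups. Of 15 inflammasome and interleukin genes tested, 1, Casp8, lay lower (-0.21), which is 6.67% beside 6.23% of all genes, and 0 lay higher. Il18 was read at 16.6, 16.8 and 18.7 CPM in KO-RA and 16.6, 15.8 and 15.8 CPM in KO-O2, and Il1r1 at 6.35, 7.59 and 9.29 CPM against 7.91, 7.63 and 10.8 CPM. Il33, an alarmin of oligodendrocytes and astrocytes, was read at 9.73, 9.37 and 11.6 CPM against 9.63, 7.96 and 9.0 CPM. All of these overlapped, with log2 fold changes of -0.11 (SE 0.0912), 0.18 (SE 0.212) and -0.21 (SE 0.207) in turn. Il6, Il1b, Tnf and Ccl2 had at most 10 counts in any of the 14 libraries and were not tested, so a difference in them was not detectable at this depth. Tlr2, a pattern recognition receptor of microglia, was read at 1.41, 1.43 and 1.49 CPM in KO-RA and 0.931, 0.440 and 0.713 CPM in KO-O2, with a fitted log2 difference of -1.05 (SE 0.294; edgeR adjusted p = 0.782). Among 19 microglial markers, 2 lay lower, Olfml3 (-0.27) and Siglech (-0.18), which is 10.5% beside 6.23% of all genes, 0 lay higher, and the median was 0.00.

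Few members of the cell type lists were free of overlap, and the counts below stand beside 5.52% of all genes higher and 6.23% lower. None of 15 myelin genes, 11 oligodendrocyte precursor genes, 14 genes of neural progenitors and immature neurons, 14 hippocampal field markers, 25 excitatory synapse genes and 13 mitochondrially encoded genes was free of overlap in either direction, and all their medians lay between -0.10 and 0.08. Of 25 cell cycle genes, Plk1 (-0.34) and Tpx2 (-0.21) lay lower (8%) and the median was 0.00. Among 20 endothelial genes, 3 lay lower (15%), the tight junction gene Ocln (-0.42), Slco1a4 (-0.24) and Ly6c1 (-0.21), with a median of 0.03. Of 13 mural cell genes, Abcc9 (-0.49), a potassium channel subunit of pericytes, and Vtn (-0.33) lay lower (15.4%), with a median of -0.06. Of 14 GABAergic interneuron genes, 2 lay higher (14.3%) and 1 lower (7.14%). Of 10 thalamic markers, 2 lay higher (20%) and 1 lower (10%). Among 8 deep-layer cortical markers 1 lay lower (12.5%), as did 1 of 18 astrocyte markers (5.56%). No choroid plexus or striatal marker was free of overlap, with medians of -0.38 and -0.19. Summed endothelial markers overlapped, at 465 to 518 CPM in KO-RA and 397 to 552 CPM in KO-O2.

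Several other genes with large fitted changes are less firm. Nnt, the mitochondrial transhydrogenase, had the largest negative difference after the predicted gene Gm10182 among genes of at least 1 CPM without overlap (log2 fold change -1.32, SE 0.532), but 2 gene identifiers share this name. The identifier that was lower (ENSMUSG00000025453) was read at 2.93, 4.34 and 2.49 CPM in KO-RA and 0.895, 0.697 and 2.33 CPM in KO-O2. Added to the other (ENSMUSG00000116207), the total was 20.5, 22.3 and 21.9 CPM against 21.3, 21.7 and 21.2 CPM, and the groups overlapped. Without KO-O2 mouse GSD495 the log2 fold change of the lower identifier was -2.03. Ptp4a1, a phosphatase, had a log2 fold change of -1.04 for the lower of its 2 identifiers and overlapping totals of 95.7 to 115 CPM and 100.1 to 105 CPM. Pcdha8 (1.02, SE 0.673) is 1 of a cluster of protocadherins that share exons, and its reads may be split among them. Muc3a (0.86) stood at 10.3 CPM in KO-O2 mouse GSD494 and at 4.33 and 4.88 CPM in the other KO-O2 mice, and Cdh15 (-0.87) at 0.220 CPM in GSD494 against 1.68 and 1.99 CPM.

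The 12 largest positive differences also held Avpr1a, a vasopressin receptor (1.00), Zfp968, a zinc finger gene (0.93), Tbc1d10c, a regulator of Rab GTPases in leukocytes (0.90), and Hic1, a transcriptional repressor (0.84). Hic1 was read at 3.94, 4.97 and 4.34 CPM in KO-RA and 10.3, 5.65 and 7.69 CPM in KO-O2. On the negative side stood Prdm1, a repressor of immune cell fates, at 1.45, 1.75 and 2.03 CPM against 1.00, 0.770 and 0.975 CPM, a log2 fold change of -0.92 (SE 0.202; edgeR adjusted p = 0.49). Zfp82 (-0.93) and Vgll3, a cofactor of Tead factors (-0.87), were apart as well. Aldh1a3, which makes retinoic acid, was read at 1.34, 1.47 and 1.2 CPM in KO-RA and 0.752, 0.807 and 0.750 CPM in KO-O2, with tight groups and a log2 fold change of -0.81 (SE 0.235; edgeR adjusted p = 0.855). Of the 7 genes lower by at least 2-fold, Gm13835 and Gm10182 are predicted genes and were named after their values were seen.

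The same exposure in wild-type littermates was set beside these differences, with no library shared between the comparisons. Levels of some tissue markers differed between the genotypes. Striatal markers summed to 160 to 269 CPM in KO-RA and 174 to 185 CPM in KO-O2. In WT-RA they summed to 606 to 887 CPM and in WT-O2 to 421 to 968 CPM. Hippocampal field markers summed to 965 to 1107 CPM in WT-RA and 1075 to 1167 CPM in WT-O2, below every KO library. Effects of genotype and of tissue content on the response cannot be told apart here. Sex was uneven between the WT groups as well, and the WT fold changes below are not adjusted for it. No gene was called for a difference between the KO and the WT response (0%), where 673 (4.05%) had an unadjusted p below 0.05 in edgeR and DESeq2 called 0. The KO genes of at least 1 CPM and 0.32 on the log2 scale without overlap had the same sign in WT for 120 of 175 (68.6%) of those higher in KO-O2 and 133 of 174 (76.4%) of those lower, against 60.2% of all genes of at least 1 CPM. Of these, 20 (11.4%) and 26 (14.9%) were free of overlap in the same direction in WT. There 2.95% of all 16637 genes tested, with no limit on CPM, lay higher and 3.04% lower without overlap. Chance separates groups of 4 mice less often than groups of 3, so the WT shares of all genes are not comparable with the KO shares. Across the 14418 genes of at least 1 CPM, the KO and WT log2 fold changes were related by r = 0.25 (Pearson) and rho = 0.28 (Spearman), a description only, since genes are not independent replicates.

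Of the 12 largest positive differences in KO, 11 had the same sign in WT and 6 were free of overlap there as well, Depp1, Adm, Ier3, Apold1, Edn1 and Hic1. Their WT log2 fold changes were 2.50 (SE 0.405), 1.80 (SE 0.351), 1.65 (SE 0.227), 1.52 (SE 0.191), 1.30 (SE 0.247) and 0.97 (SE 0.235). Each lay within 0.52 of the KO value. Of the 12 largest negative differences, 9 had the same sign in WT and 4 were free of overlap there, Fos (-1.09, SE 0.124), Arc (-1.18, SE 0.151), Fosb (-0.90, SE 0.134) and Prdm1 (-0.79, SE 0.172). For Ier3 the KO response exceeded the WT response by 0.31 and for Fos it was lower by 0.13, with unadjusted interaction p of 0.393 and 0.501 in edgeR.

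**Figure D5:**
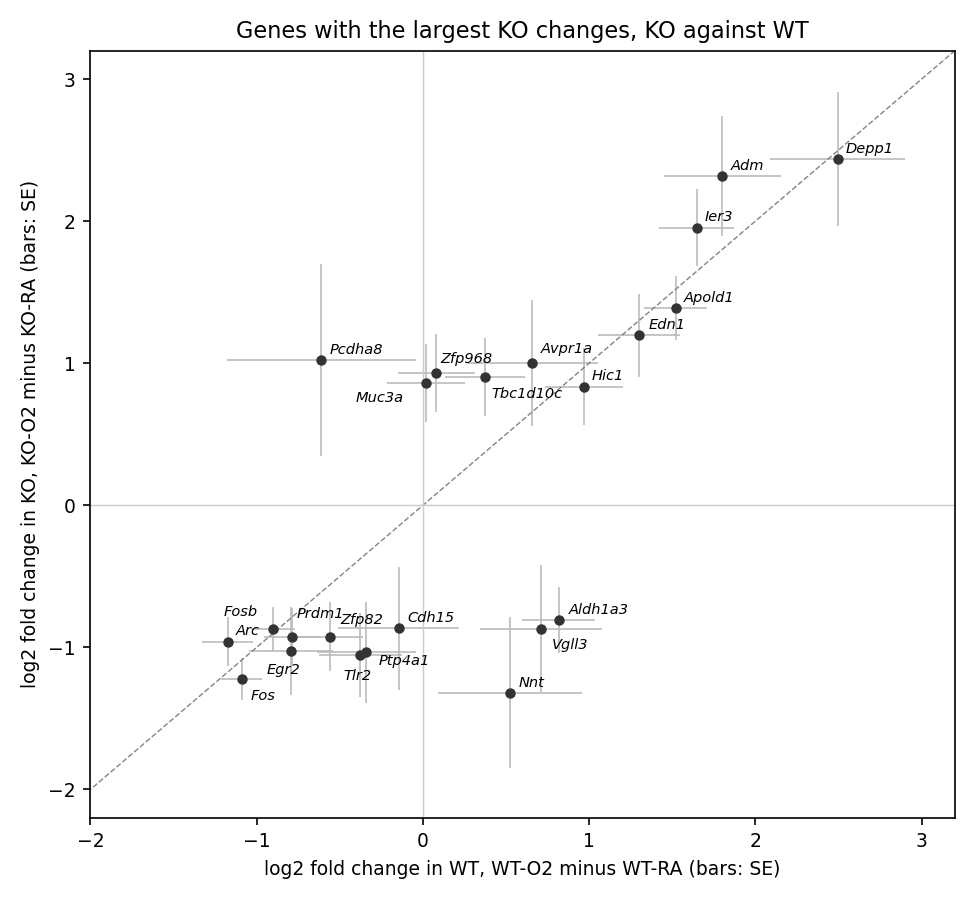
Fitted log2 fold change in KO (KO-O2 minus KO-RA) against that in WT (WT-O2 minus WT-RA) for 23 of the 24 genes with the largest KO changes, with bars of 1 SE and a dashed line of equal change. Depp1, Adm, Ier3, Apold1 and Edn1 and, below 0, Fos, Arc, Fosb and Prdm1 lie near the line, while Aldh1a3, Vgll3 and Nnt were lower in KO-O2 and not in WT-O2.

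Of the 14418 genes of at least 1 CPM, 14 went opposite ways in the 2 genotypes without overlap in either, and 139 went the same way. Aldh1a3 was lower in KO-O2 without overlap and higher in WT-O2 without overlap (0.82, SE 0.219), which gave the largest difference among such genes, -1.63 (SE 0.321; unadjusted p = 0.000152 and adjusted p = 1.00 in edgeR). In room air the KO mice held 1.2 to 1.47 CPM of Aldh1a3 and the WT mice 0.436 to 0.538 CPM, while in hyperoxia they held 0.750 to 0.807 CPM and 0.708 to 1.17 CPM. Fosl2 was lower in KO-O2 (-0.46) and at 0.32 in WT, where its groups overlapped (unadjusted p = 0.000786 in edgeR). Among 20 interferon-stimulated and MHC class I genes, 15 had a positive log2 fold change in KO and 14 a negative one in WT, with medians of 0.18 and -0.37. Without overlap, 2 of the 20 lay higher in KO (10%, against 5.52% of all genes) and 0 lower. In WT, 6 of the 20 lay lower without overlap, against 3.04% of all genes, and 0 higher. In edgeR, 6 of the 20 had an unadjusted interaction p below 0.05, against 4.05% of all genes, and none passed adjustment. Ifit1, Ifit3, Xaf1, Oas1a and Stat2 were among them. Ifit3, an antiviral effector, was read at 1.41, 2.48 and 2.70 CPM in KO-RA and 3.54, 2.93 and 2.93 CPM in KO-O2. In WT-RA mouse GSD399 it stood at 9.47 CPM against 1.65 to 1.86 CPM in the other WT-RA mice, so the WT side rests in part on 1 library. The KO median of this list was 0.03 without KO-O2 mouse GSD494 and -0.01 without GSD494 and GSD489.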

How the data were processed

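Hippocampal RNA of 14 pups was sequenced after selection of polyadenylated RNA. The values that the authors deposited are estimated counts. By the study's methods they were made with kallisto on GRCm39 transcripts and summed with tximport. Versions are not given in the sources used here. Of the 36118 genes, 35825 could be given a symbol. Such counts divide reads among transcripts by probability, so genes with near-identical copies are uncertain. Counts were rounded, filtered with edgeR's filterByExpr (16637 genes), normalized by TMM and fitted in edgeR 4.0.16 (R 4.3.3) over all 14 libraries with 1 coefficient per group. The quasi-likelihood F-test was used, with Benjamini-Hochberg adjustment. DESeq2 1.42.0 was an alternative. No pair of replicates agreed within sampling noise.

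The gene lists, the comparison and the rules were chosen with earlier results of these data known. Named were Gsdmd, the genes called, the 12 largest differences in each direction among genes of at least 1 CPM without overlap and with a symbol other than a predicted one, the genes of the study's qRT-PCR, up to 4 members of each list with the largest change without overlap, and members that a sentence on a list needed. Where 2 identifiers share a symbol, the one with more counts stood for it in lists. Summed markers of Y-linked genes above 20 CPM were read as male. No source says that mice of a group came from separate litters, so p-values measure the spread between these mice. The calls were tested on simulated counts drawn separately for each gene, so shifts in tissue content shared by many genes were not simulated. Results for some genes of the lists are counted but not reported here by name. The promoter table held entries for 17 of 24 genes, and its build, GRCm38.p6, differs from that of the counts.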

Additional observations from a re-analysis of the deposited data

Results flagged for a closer look

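The 29 genes named were examined in the WT groups of 4 for a mouse far from the other 3 by Dixon's test, which chance alone passes in about 1 of 20 groups. Of 58 groups, 3 passed. Edn1 stood at 10.9 CPM in WT-O2 mouse GSD408, against 7.72 to 8.21 CPM in the other WT-O2 mice, the mouse whose labels conflict. Avpr1a stood at 2.04 CPM in WT-O2 mouse GSD405, against 0.806 to 0.953 CPM. Fosb stood at 5.82 CPM in WT-RA mouse GSD398, against 6.31 to 6.41 CPM. The KO groups of 3 were not examined by this test.

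Aldh1a3 moved in opposite directions in the genotypes, without overlap in either, and the KO response differed from the WT response by -1.63 on the log2 scale. The edgeR interaction test of this difference did not pass adjustment.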

How the results depend on the processing

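The count of 2 genes called in KO became 6 without a filter on low counts, 13 with DESeq2 on all libraries, 29 with DESeq2 and 4 with edgeR on the KO libraries alone, 4 with mouse GSD408 left out, 0 with it as WT-RA, and 6 with striatal and thalamic markers as covariates. It was 1 to 4 with each KO mouse left out, 1 without GSD489 or GSD490 and 4 without GSD495 or GSD496. Chosen after seeing the data, leaving out GSD489 and GSD494 together gave 0, with 3305 genes higher and 3290 lower without overlap (695 and 1038 at a log2 size of 0.32) as 2 mice against 2 separate more easily, and choroid plexus markers as a covariate gave 2. The interaction count was 0 in all alternatives run. Genes without overlap numbered 1446 to 2144 higher and 1545 to 2281 lower with 1 mouse left out, and 509 to 648 and 356 to 785 at a log2 size of 0.32, since 5 mice are more easily separated than 6. Without a filter, 582 and 392 passed at that size. With 1 mouse left out, members without overlap were 1 to 4 higher and 7 to 11 lower in the immediate early list, 11 to 13 and 1 to 5 in the hypoxia list, 0 to 2 and 8 to 10 in the unfolded protein list, and 2 to 4 and 4 to 7 in the heat shock list. The immediate early counts moved without GSD490 (4 higher), GSD494 (3 higher) and GSD496 (11 lower), the hypoxia count without GSD491 (5 lower), GSD489 (4), GSD496 (3) and GSD490 (2), the unfolded protein count without GSD494 (2 higher) and GSD489 (1), and the heat shock counts without GSD491 (4 and 7). The lower hypoxia members were 2 by size factors, by library size and with at least 10 counts in every library. Without GSD489 and GSD494 together, 3 immediate early members lay higher, 5 hypoxia members lower and 4 unfolded protein members higher. The medians of these lists kept their sign in all alternatives run, at -0.32 to -0.13, 0.05 to 0.14, -0.11 to -0.07 and -0.08 to -0.04 in turn. None of the 29 genes recomputed (Gsdmd, the genes called, the 12 largest differences in each direction and the study's qRT-PCR genes) changed sign. The other list members were not recomputed one by one. The causes were not tested. No paired analysis was possible because the labels give no shared replicate numbers. Low counts limit Gsdmd, with 22 to 63 per library, and kept Il6, Il1b, Tnf, Ccl2 and Gdf15 from being tested.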

Other observations

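Among the 14418 genes of at least 1 CPM, 14 were free of overlap in both genotypes with opposite directions, 4 higher in KO-O2 and lower in WT-O2 and 10 the reverse, beside 139 that were free of overlap in the same direction in both. Chance alone leaves some genes without overlap in both genotypes, so the 14 cannot be read as genes whose response differed by genotype. The genes named here were chosen after their values were seen. Car7, a carbonic anhydrase of neurons that shapes GABA signaling, was read at 13.0, 15.4 and 15.7 CPM in KO-RA and 17.0, 17.0 and 15.7 CPM in KO-O2, where the groups were almost in contact. In WT it was read at 15.0 to 22.0 CPM in room air and 11.4 to 12.3 CPM in hyperoxia. Its KO log2 fold change was 0.17 (SE 0.121) and its WT log2 fold change was -0.58. Doc2b, a calcium sensor of transmitter release, was lower by 0.16 in KO-O2 and at 0.32 in WT. The adjusted interaction p of both was 1.00 in edgeR.

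Osgin1, an oxidative stress response gene, had a KO log2 fold change of 0.73 (SE 0.464) with overlapping groups and a WT log2 fold change of 2.67, which was the widest gap between the genotypes in the antioxidant list.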
